A study of Homo sapiens with 8 samples.

Results

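The circadian clock genes BMAL1, CLOCK, PER1, PER2, PER3, CRY1, CRY2, NR1D1 and NR1D2 were examined for NF-Y binding in peak lists of 6 libraries from 2 rhabdomyosarcoma cell lines. They are 9 of 20033 protein-coding genes, taken by name, with 2 activators of the clock (BMAL1 and CLOCK) and 7 repressors. All 9 were found in the gene table, where BMAL1 is also entered under its older name ARNTL. The genes were chosen by the presence of peaks at their ends in these same lists, so the calls there are given as a description and no test is made on them.

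The factor NF-Y, built from the subunits NFYA, NFYB and NFYC, binds the sequence CCAAT, mostly in promoters. The molecular clock is a feedback loop of transcription. BMAL1 and CLOCK form a dimer that binds E-boxes and switches on the PER, CRY and NR1D genes. PER and CRY proteins then block that dimer, and NR1D1 and NR1D2, nuclear receptors also known as REV-ERB alpha and beta, shut off BMAL1.

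CUT&RUN was used to map binding: an antibody brings a nuclease to the bound protein, and the DNA cut loose around it is sequenced. RH30 cells held a cytosine base editor that rapamycin switches on. They received a guide RNA, were selected with blasticidin, and were harvested 8 days after rapamycin. The guides sgCCAAT2a and sgCCAAT2b are aimed at a CCAAT box of the PAX3 promoter, and their libraries are called edited here; sgCtrl1 and sgCtrl2 are the control guides. Each guide gave 1 NFYB library. RH4 cells were uninfected and gave 1 NFYB and 1 NFYC library; all cells carry the PAX3-FOXO1 fusion. The 2 IgG libraries, from RH4 and from RH30 with sgCtrl1, were not analysed here. Titles call 5 libraries RH30, while their source and cell line entries read RH4; here they go by their titles.

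The lists differed in length. They held 2451 peaks for sgCCAAT2a, 2558 for sgCCAAT2b, 4025 for sgCtrl1, 6687 for sgCtrl2, 3243 for RH4 NFYB and 3760 for RH4 NFYC. RH30 depth was 10.5 to 28.2 M tags, as the file headers give it, and both edited libraries were the deepest with the lowest share of tags in peaks (1.22% and 1.46%, against 2.40% and 3.10% in the controls). The depth of the RH4 libraries is unknown. PAX3 had a peak within 1000 bp of a gene end in both RH30 controls and both RH4 lists, and in neither edited list. With 1 library for each guide or antibody there is no replicate, so no p-value between conditions was computed, and peak lists show neither transcript levels nor the time of day in these cells.

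The promoter sequences around which the peaks lay are shown first, because the number and position of CCAAT boxes differ between the clock genes, as does the number of boxes that lie inside a peak. Each is the stretch of 250 bases before an annotated start, 5′ to 3′ on the gene's strand, from RefSeq on GRCh38.p14. Capitals mark CCAAT on either strand, so a box on the opposite strand reads ATTGG. BMAL1 is the second of its annotated starts (chr11:13277540-13277789, plus strand), PER1 is chr17:8152405-8152654 (minus strand), PER2 is chr2:238288611-238288860 (minus strand), PER3 is the first of its annotated starts (chr1:7784041-7784290, plus strand), CRY1 is chr12:107093550-107093799 (minus strand) and CRY2 is the second of its annotated starts (chr11:45847225-45847474, plus strand).
BMAL1: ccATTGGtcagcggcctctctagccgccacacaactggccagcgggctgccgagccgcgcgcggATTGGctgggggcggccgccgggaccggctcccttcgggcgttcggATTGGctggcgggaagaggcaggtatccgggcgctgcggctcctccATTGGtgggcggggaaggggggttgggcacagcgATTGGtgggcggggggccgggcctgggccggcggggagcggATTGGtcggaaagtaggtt
PER1: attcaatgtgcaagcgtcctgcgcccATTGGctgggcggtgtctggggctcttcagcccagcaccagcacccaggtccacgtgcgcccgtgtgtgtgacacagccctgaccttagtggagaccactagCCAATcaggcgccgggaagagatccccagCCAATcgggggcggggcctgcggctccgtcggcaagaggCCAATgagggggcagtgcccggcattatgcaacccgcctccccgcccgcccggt
PER2: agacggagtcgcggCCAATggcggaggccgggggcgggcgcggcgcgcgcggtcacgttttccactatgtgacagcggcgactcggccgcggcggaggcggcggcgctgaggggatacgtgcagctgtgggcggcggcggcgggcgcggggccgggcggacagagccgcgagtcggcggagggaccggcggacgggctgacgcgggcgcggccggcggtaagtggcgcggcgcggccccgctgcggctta
PER3: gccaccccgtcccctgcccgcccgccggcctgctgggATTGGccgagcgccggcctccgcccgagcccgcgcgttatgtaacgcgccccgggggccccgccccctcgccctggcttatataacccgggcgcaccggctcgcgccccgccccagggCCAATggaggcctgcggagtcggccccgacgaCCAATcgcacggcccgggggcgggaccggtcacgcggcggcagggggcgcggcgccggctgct
CRY1: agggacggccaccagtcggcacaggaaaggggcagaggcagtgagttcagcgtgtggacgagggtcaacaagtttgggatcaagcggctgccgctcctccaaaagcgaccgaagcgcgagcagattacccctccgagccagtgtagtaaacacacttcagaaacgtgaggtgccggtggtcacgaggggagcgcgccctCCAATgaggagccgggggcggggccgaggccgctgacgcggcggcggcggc
CRY2: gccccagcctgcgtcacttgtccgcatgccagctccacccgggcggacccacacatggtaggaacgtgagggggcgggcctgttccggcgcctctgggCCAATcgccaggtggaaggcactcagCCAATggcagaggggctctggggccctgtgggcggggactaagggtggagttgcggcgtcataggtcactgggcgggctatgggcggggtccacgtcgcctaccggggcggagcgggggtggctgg

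BMAL1 stands out by 6 CCAAT boxes, all in the opposite orientation. They begin 248, 186, 140, 94, 60 and 19 bases before the start, at steps of 62, 46, 46, 34 and 41 bases. PER1 had 4 boxes, which begin 224, 122, 93 and 54 bases before the start, the first of them in the opposite orientation. PER3 had 3, CRY2 had 2, and CRY1 and PER2 had 1 each. Among 22174 windows of protein-coding genes, each of 250 bases before and 50 after a start, 34.7% held CCAAT on either strand. At least 3 boxes stood in 3.61% of the windows and at least 6 in 0.108% (24 windows). A match of letters is not a bound site.

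Clock genes had a peak at an end in every list. The count was 4 of 9 with sgCCAAT2a and 3 of 9 with sgCCAAT2b, against 4 of 9 with sgCtrl1 and 6 of 9 with sgCtrl2, and it was 4 of 9 for RH4 NFYB and 6 of 9 for RH4 NFYC. For a gene to count, some peak had to touch the stretch from 1000 bp before to 1000 bp after its start or its end in the gene table. Over all 20033 genes the share was 8.9% with sgCCAAT2a and 9.27% with sgCCAAT2b, against 12.6% with sgCtrl1 and 16.8% with sgCtrl2, and 15.0% and 15.3% for RH4 NFYB and NFYC. The shares of the clock genes were 33.3 to 66.7%; since these calls chose the genes, nothing is read from their height. Their exact Clopper-Pearson 95% intervals cover counting only and are wide, running from 7.49 to 70.1% with sgCCAAT2b and from 29.9 to 92.5% with sgCtrl2.

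**Figure D1:**
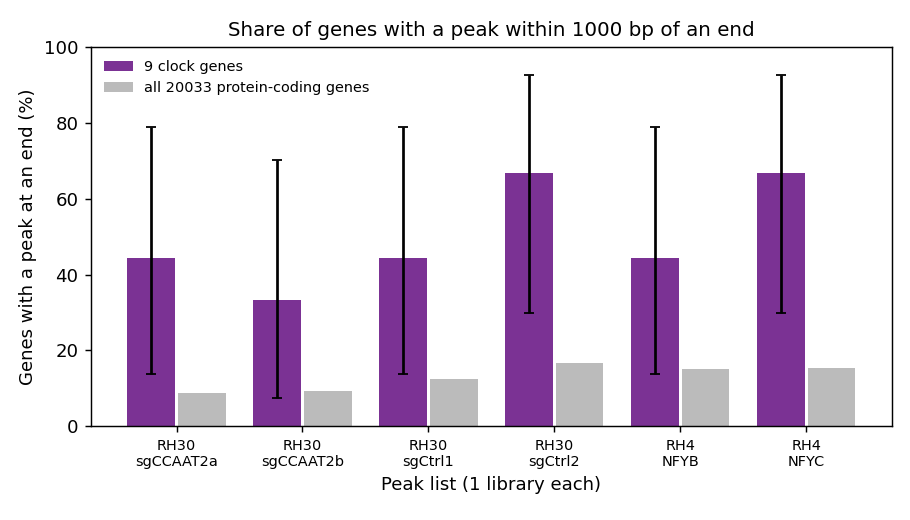
Share of genes with a peak within 1000 bp of a gene end (%, vertical axis) in each of the 6 peak lists, for the 9 clock genes (purple, error bars are exact 95% intervals of counting) and for all 20033 protein-coding genes (grey). The clock genes lie between 33.3% and 66.7%, and all genes between 8.9% and 16.8%.

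The 2 activators differed in their calls. BMAL1 had a peak in all 6 lists, and CLOCK in the sgCtrl2 list alone. With sgCtrl2 thus 2 of 2 activators had a peak, and 1 of 2 in each of the other 5 lists. Of the 7 repressors, 3 had a peak with sgCCAAT2a and 2 with sgCCAAT2b, against 3 with sgCtrl1 and 4 with sgCtrl2. For RH4 NFYB it was 3 of 7 and for RH4 NFYC 5 of 7. With 2 activators the groups are too small for the shares of activators and repressors to be set against each other.

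BMAL1, the activator whose level swings in the cell and which REV-ERB proteins repress, carried a peak over the same short stretch in every list. The gene lies on the plus strand of hg38 at chr11:13276652-13387266 and has an outer annotated start at 13276652 and an inner one at 13277790, 1138 bp further in. The peaks lay at chr11:13277531-13277683 with sgCCAAT2a and chr11:13277512-13277674 with sgCCAAT2b, against chr11:13277513-13277701 with sgCtrl1 and chr11:13277492-13277688 with sgCtrl2. In RH4 they lay at chr11:13277223-13277844 for NFYB and chr11:13277402-13277790 for NFYC. All 6 share 144 bp, chr11:13277531-13277674, and all 6 are centred just upstream of the inner start: 183 and 197 bp with sgCCAAT2a and sgCCAAT2b, against 183 and 200 bp with sgCtrl1 and sgCtrl2, and 256.5 and 194 bp in RH4. No peak of any list touched the window of the outer start, which holds 2 CCAAT boxes. Of the 6 boxes printed above, the first 3 lay wholly inside the peak in all 6 lists, the fourth in 3 lists (sgCtrl1 and both RH4 lists), and the last 2 in the RH4 lists alone. RH30 peaks have nearly 1 width per list: 153 and 163 bp in the edited lists, against 189 and 197 bp in sgCtrl1 and sgCtrl2. The RH4 peaks of BMAL1 were 622 bp wide for NFYB and 389 bp for NFYC. Here and at the other genes, a motif inside 1 peak and outside another is thus not read as a difference in binding. The window held no E-box, and 1 AGGTCA core, which begins 32 bases into the transcript, inside the RH4 NFYB peak alone.

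The BMAL1 peak stood near the top of all 4 RH30 files. It was entry 104 of 2451 with sgCCAAT2a and 140 of 2558 with sgCCAAT2b, against entry 75 of 4025 with sgCtrl1 and 27 of 6687 with sgCtrl2. These places are 4.24% and 5.47% of the way down the edited lists, against 1.86% and 0.404% in the controls. The headers do not state that entries are ranked, and places in lists of different lengths show no change. The authors' deposited tables list the sgCtrl2 peak of BMAL1 as at least 2.5-fold higher than with sgCCAAT2a and than with sgCCAAT2b, and do not list it over sgCtrl1. All 3 tables share the sgCtrl2 library. The site was thus called in both edited libraries while the authors' deposited tables list it as lower there.

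Genes with calls like those of BMAL1 were common. A peak at an end in all 6 lists was found for 1408 genes (7.03%), and 279 of these (19.8%) had the same listing as BMAL1 in the authors' deposited tables. Those nearest to BMAL1 in the sgCtrl2 file were FER, a tyrosine kinase, at entry 37, PRKACA, a protein kinase A catalytic subunit, at entry 40, and CCNK, a cyclin of transcriptional kinases, at entry 9. Likeness here is the same presence in 6 lists and 3 tables, and then the difference in place, which was 10, 13 and 18 entries.

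CLOCK, the partner of BMAL1, had 1 peak, at chr4:55546690-55546886 with sgCtrl2, and none in the other 5 lists. The gene lies on the minus strand at chr4:55427903-55546909. The peak is centred 121 bp inside the outer start and was entry 4581 of 6687, in the lower part of the file. Its promoter window at the outer start held no CCAAT box, and the peak reaches beyond that window. The authors' deposited tables list it as higher with sgCtrl2 than with either edited guide and not than with sgCtrl1, although sgCtrl1 also had no CLOCK peak. Of the 3362 genes with an sgCtrl2 peak at an end, 729 (21.7%) had one in no other list.

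PER1, a repressor that is also an early response gene, had a promoter peak in all 4 RH30 lists. The gene is at chr17:8140472-8152404 on the minus strand. Its promoter peak lay at chr17:8152420-8152572 with sgCCAAT2a and chr17:8152404-8152566 with sgCCAAT2b, against chr17:8152386-8152574 with sgCtrl1 and chr17:8152387-8152583 with sgCtrl2. RH4 NFYC had a narrow peak of 85 bp at chr17:8152452-8152536, and RH4 NFYB had none. The centres lay 76 to 92 bp upstream of the start in all 5 lists. The last 3 of its 4 CCAAT boxes lay inside the peak in all 5 lists, and the first in none. An E-box, CACGTG, stood 173 bases before the start. It lay wholly inside the sgCtrl2 peak alone, while the edges of the sgCCAAT2a and sgCtrl1 peaks fell within it. Of all windows, 8.34% held that sequence. AGGTCA, the core bound by REV-ERB and ROR receptors, began 144 bases before the start, inside the peak in all 4 RH30 lists, against 11.9% of all windows with that core.

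The PER1 promoter peak was not listed as changed. It was entry 1381 of 2451 with sgCCAAT2a and 1385 of 2558 with sgCCAAT2b, against entry 1265 of 4025 with sgCtrl1 and 1011 of 6687 with sgCtrl2. None of the authors' deposited tables lists it. The pattern of PER1 over the 6 lists was rare, at 36 genes (0.18%), and 18 of these were in none of the tables. Genes near it in place included RPS6KA4, a stress-activated kinase, and ZNF91, a zinc finger repressor, with differences of 373 and 1300 entries, so neither was close.

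A further NF-Y site lay upstream of PER1 and outside the counted window. Its centre lay 4175 and 4193 bp upstream of the PER1 start with sgCCAAT2a and sgCCAAT2b, against 4175 and 4095 bp with sgCtrl1 and sgCtrl2, and 4172 and 4174.5 bp for NFYB and NFYC in RH4. It was thus found in all 6 lists, RH4 NFYB included. In the RH30 files it stood higher than the promoter peak, at entries 170 and 157 in the edited lists, against 114 and 100 in the controls. No end of a protein-coding gene lay within 1000 bp of it. With sgCtrl2 alone, another peak lay 1307 bp beyond the far end of PER1, at entry 2394 of 6687. The authors' deposited table over sgCCAAT2b lists that peak, and those over sgCCAAT2a and sgCtrl1 do not.

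PER2, whose loss disturbs behavioural rhythms in mice, had no peak at either end of its gene and yet had NF-Y at its inner promoter. At chr2:238244044-238300065, the gene runs on the minus strand, and its annotated start in the promoter table, at 238288610, is 11455 bp inside the gene. A peak lay just upstream of that start at chr2:238288822-238288974 with sgCCAAT2a, at chr2:238288643-238289145 for RH4 NFYB and at chr2:238288767-238289060 for RH4 NFYC. No peak was called there with sgCCAAT2b, sgCtrl1 or sgCtrl2. The centres lay 288 bp upstream with sgCCAAT2a and 284 and 303.5 bp upstream in RH4. The CCAAT box of the printed sequence, which begins 236 bases before the start, lay inside the peak in all 3 lists. The sgCCAAT2a peak was entry 189 of 2451. A call in an edited library without a call in either control was uncommon: of 1582 genes with an sgCCAAT2a peak within 1000 bp of an annotated start, 39 (2.47%) had none in either control. Seen from RH4 it was less uncommon: of 2349 genes with a peak there in both RH4 lists, 304 (12.9%) had none in either control. A second peak called in these 3 lists alone lay beyond the far end of PER2 and at an end of HES6. With sgCCAAT2a it was at chr2:238240056-238240208. The PER2 promoter peak was found after the values were seen, and the authors' deposited tables, which start from sgCtrl2 peaks, cannot list it.

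PER3, the third PER gene, was the clock gene with a peak in both controls and in neither edited list. It runs on the plus strand at chr1:7784291-7845177. Its peaks lay at chr1:7783857-7784045 with sgCtrl1, chr1:7783975-7784171 with sgCtrl2, chr1:7783818-7784213 for RH4 NFYB and chr1:7783867-7784227 for RH4 NFYC. The control peaks shared little with each other: the stretch common to all 4 lists is 71 bp. The sgCtrl2 peak covered the first CCAAT box of the printed sequence, the RH4 peaks the first 2, and the sgCtrl1 peak none. A D-box, TTANGTAA with any base at N, began 177 bases before the start, inside the sgCtrl2 and RH4 peaks. Of all windows, 1.6% held one. The PER2 window also held a D-box, across the start and in no peak. The peak was entry 2196 of 4025 with sgCtrl1 and 2506 of 6687 with sgCtrl2. None of the authors' deposited tables lists it, so the sgCtrl2 peak did not pass the limits on fold and p over either edited library. Of 2258 genes with a peak in both controls, 489 (21.7%) had none in either edited list, and for 103 of these 489 (21.1%) the authors' deposited tables list no peak, as at PER3. The genes nearest to PER3 in pattern were TAOK3, a kinase, PLIN5, a lipid droplet protein, and ACTR1B, a dynactin subunit, at differences of 10, 16 and 22 entries.

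**Figure D2:**
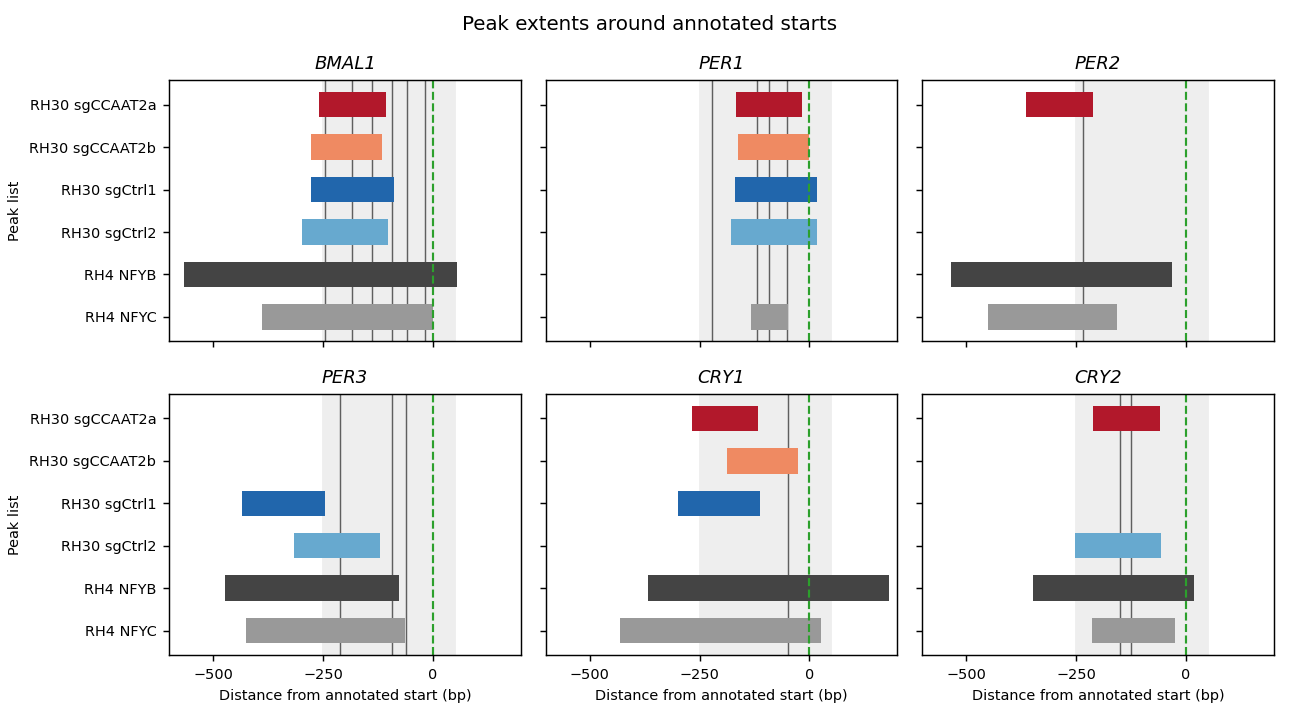
Extent of each peak (coloured bars, 1 row per peak list) in bp from the annotated start (dashed green line, upstream to the left) for 6 clock genes; black lines mark CCAAT boxes, and grey shading the window in which they were searched. The 6 BMAL1 peaks overlap over 144 bp with 3 boxes, while the PER3 rows of both edited lists and the PER2 rows of sgCCAAT2b and both controls are empty.

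CRY1, a strong repressor of the BMAL1 and CLOCK dimer, had a promoter peak in every list but sgCtrl2. It runs on the minus strand at chr12:106991364-107093549. Its peaks lay at chr12:107093665-107093817 with sgCCAAT2a and chr12:107093575-107093737 with sgCCAAT2b, against chr12:107093661-107093849 with sgCtrl1. In RH4 they lay at chr12:107093369-107093916 for NFYB and chr12:107093523-107093980 for NFYC. The CCAAT box, which begins 51 bases before the start, lay inside the sgCCAAT2b and RH4 peaks and outside those of sgCCAAT2a and sgCtrl1. The peak was entry 921 of 2451 with sgCCAAT2a and 1199 of 2558 with sgCCAAT2b, against entry 869 of 4025 with sgCtrl1. The longest list, sgCtrl2, had a peak 42875 bp inside the gene, at entry 5774 of 6687, which the authors' deposited tables list over sgCCAAT2a, sgCCAAT2b and sgCtrl1. A further site lay beyond the far end of CRY1, at an end of MTERF2, in every list but sgCCAAT2a. With sgCtrl2 it was entry 1949 of 6687, and the authors' deposited tables list it over sgCCAAT2a alone. Of 1578 genes with a peak in sgCtrl1 and both edited lists, 82 (5.2%) had none with sgCtrl2. Without an sgCtrl2 peak at an end, CRY1 could not be looked up in the authors' deposited tables nor matched by place.

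CRY2, the other cryptochrome, had a peak with 1 edited guide and 1 control. It runs on the plus strand at chr11:45847118-45883244, and the peaks lay upstream of its inner start at 45847475. They lay at chr11:45847264-45847416 with sgCCAAT2a, against chr11:45847222-45847418 with sgCtrl2. In RH4 they lay at chr11:45847128-45847493 for NFYB and chr11:45847262-45847450 for NFYC. The sgCCAAT2b and sgCtrl1 lists had none. Both CCAAT boxes lay inside the peak in all 4 lists, and the centres lay 119 to 164.5 bp upstream of the inner start. An AGGTCA core, which begins 64 bases before the inner start, also lay inside the peak in all 4 lists. The window of the outer start held another, in no peak. The peak was entry 600 of 2451 with sgCCAAT2a, against entry 346 of 6687 with sgCtrl2.

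Calls and listings ran against each other at CRY2. The authors' deposited tables list the sgCtrl2 peak as higher than with sgCCAAT2a, where a peak was called, and not than with sgCCAAT2b or sgCtrl1, where none was called. Neither is rare. Of 1633 genes with a peak in both sgCCAAT2a and sgCtrl2, 561 (34.4%) were in the authors' deposited table over sgCCAAT2a, and of 1640 genes with an sgCtrl2 peak and none with sgCCAAT2b, 405 (24.7%) were not in the table over sgCCAAT2b. The whole combination was found at CRY2 alone among the 18 genes with its pattern over the 6 lists.

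NR1D1, the REV-ERB that represses BMAL1, had no peak within 1000 bp of an end, but a peak just beyond that limit in 5 lists. On the minus strand the gene spans chr17:40092793-40100589. The peaks lay at chr17:40099254-40099406 with sgCCAAT2a and chr17:40099274-40099436 with sgCCAAT2b, against chr17:40099231-40099419 with sgCtrl1 and chr17:40099246-40099442 with sgCtrl2. RH4 NFYC had a peak at chr17:40099322-40099397, and RH4 NFYB had none. The nearest edges lay 1183 and 1153 bp from the gene end in the edited lists, against 1170 and 1147 bp in the controls, and 1192 bp for RH4 NFYC. Just inside the limit, for comparison, lay the edge of the BMAL1 peaks, 571 to 879 bp from the outer start, and of the RH4 NFYC peak of NR1D2, at 579 bp. The NR1D1 peak was entry 1479 of 2451 and 1262 of 2558 in the edited lists, against 1051 of 4025 and 804 of 6687 in the controls. The authors' deposited tables list it as higher with sgCtrl2 than with each edited guide, and not than with sgCtrl1, as at BMAL1.

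NR1D2, the other REV-ERB gene, had a peak with sgCtrl2 and for RH4 NFYC, at different places. The gene lies on the plus strand at chr3:23945286-23980617. The sgCtrl2 peak at chr3:23945325-23945521 was centred 137 bp inside the outer start, and the RH4 NFYC peak at chr3:23945865-23946004 lay 186.5 bp upstream of the inner start. They did not overlap. The NFYC peak also lay within 1000 bp of an end of NKIRAS1, an inhibitor of NF-kappa B signalling, the 1 case of a counted clock gene peak at the end of another protein-coding gene. Neither promoter window of NR1D2 held CCAAT. The inner one held a D-box inside the NFYC peak and 2 E-boxes, of which 1 lay inside that peak. At least 2 E-boxes stood in 0.848% of all windows. The authors' deposited tables list the sgCtrl2 peak, entry 3164, as higher than with each edited guide and not than with sgCtrl1.

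Counting beyond the gene ends, a choice made after the values were seen, brought in PER2 and NR1D1 and, in the sgCtrl2 list, CRY1. CRY1 came in with the whole gene, through the sgCtrl2 peak 42875 bp inside it and away from its promoter. Within 1000 bp of any annotated start, 5 clock genes had a peak with sgCCAAT2a and 3 with sgCCAAT2b, against 4 with sgCtrl1 and 6 with sgCtrl2, and 5 and 7 for NFYB and NFYC in RH4. Over the 15841 genes with an annotated start the shares were 9.99% and 10.4% in the edited lists, against 13.9% and 18.2% in the controls, and 16.5% and 16.9% in RH4. PER2 accounts for each added gene. In the whole gene and 1000 bp around it, 6 clock genes had a peak with sgCCAAT2a and 4 with sgCCAAT2b, against 5 with sgCtrl1 and 8 with sgCtrl2, and 5 and 8 for NFYB and NFYC in RH4. Over all genes these shares were 10.7% and 11.2% in the edited lists, against 16.2% and 23.7% in the controls, and 17.2% and 17.8% in RH4. Under this count all 9 clock genes had a peak in at least 1 list. The share of all genes with a peak in at least 1 list was not computed for it, so nothing is read from that number.

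**Figure D3:**
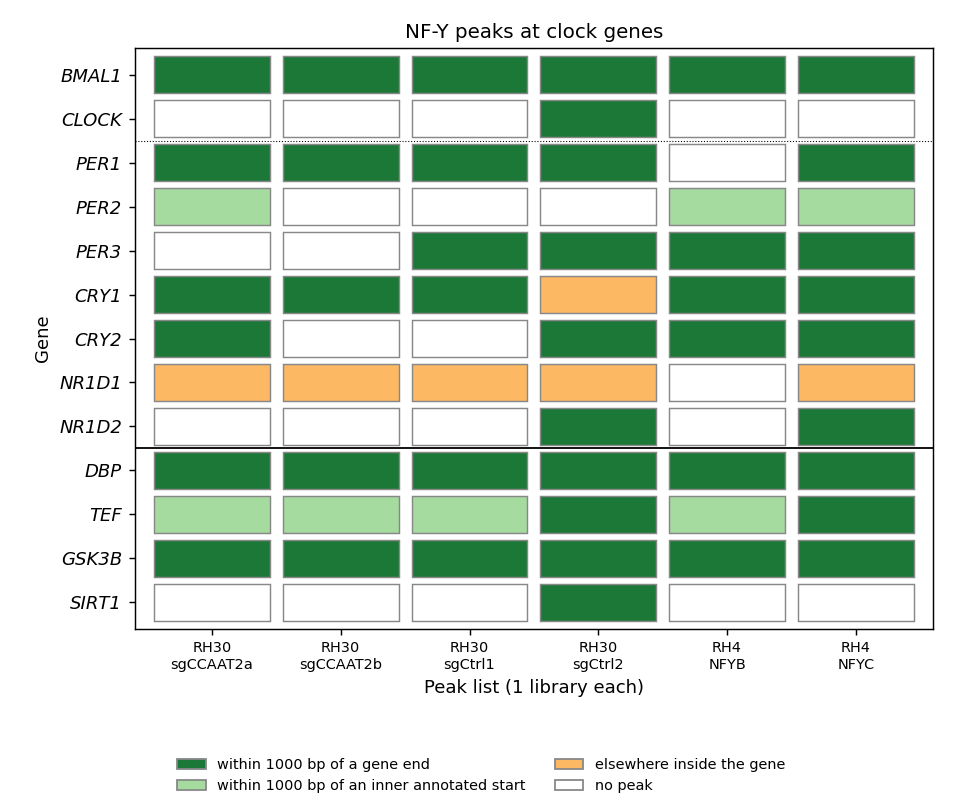
Peaks at the 9 clock genes and, below the solid line, at the 4 further clock-related genes that any list called at an end; columns are the 6 peak lists and colours give the peak's position relative to the gene, with white for no peak in the gene or within 1000 bp of it. BMAL1, DBP and GSK3B have a peak at an end in all 6 lists, and PER2 and NR1D1 have peaks away from the ends alone.

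Set side by side, edited and control lists agreed at some clock genes and not at others. A peak at an end in both edited lists was found for 3 of 9 clock genes (BMAL1, PER1 and CRY1), and in both control lists also for 3 of 9 (BMAL1, PER1 and PER3). Over all genes the shares were 8.12% in both edited and 11.3% in both control lists. PER3 was the 1 of these 3 with a peak in neither edited list. The edited lists disagreed at 1 clock gene (CRY2) and the controls at 4 (CLOCK, CRY1, CRY2 and NR1D2). Over all genes the edited lists disagreed at 385 (1.92%) and the controls at 1369 (6.83%), so the controls differed more in general too. Both RH4 lists had a peak at 4 of 9 (BMAL1, PER3, CRY1 and CRY2), against 13.5% of all genes. PER1 and NR1D2 had an RH4 peak for NFYC and not for NFYB, which held for 373 of 3074 genes (12.1%) with an NFYC peak at an end.

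Of the 6 clock genes with an sgCtrl2 peak at an end, the authors' deposited tables list 4 as higher than with sgCCAAT2a (BMAL1, CLOCK, CRY2 and NR1D2) and 3 as higher than with sgCCAAT2b (BMAL1, CLOCK and NR1D2). None of the 6 is listed over sgCtrl1. Over all 3362 genes with an sgCtrl2 peak at an end, the authors' deposited tables list 56.6% over sgCCAAT2a, 50.9% over sgCCAAT2b and 11.7% over sgCtrl1. The clock genes' counts lie near these shares. The lower share of tags in peaks in both edited libraries moves with the listings, and its part in them was not tested.

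**Figure D4:**
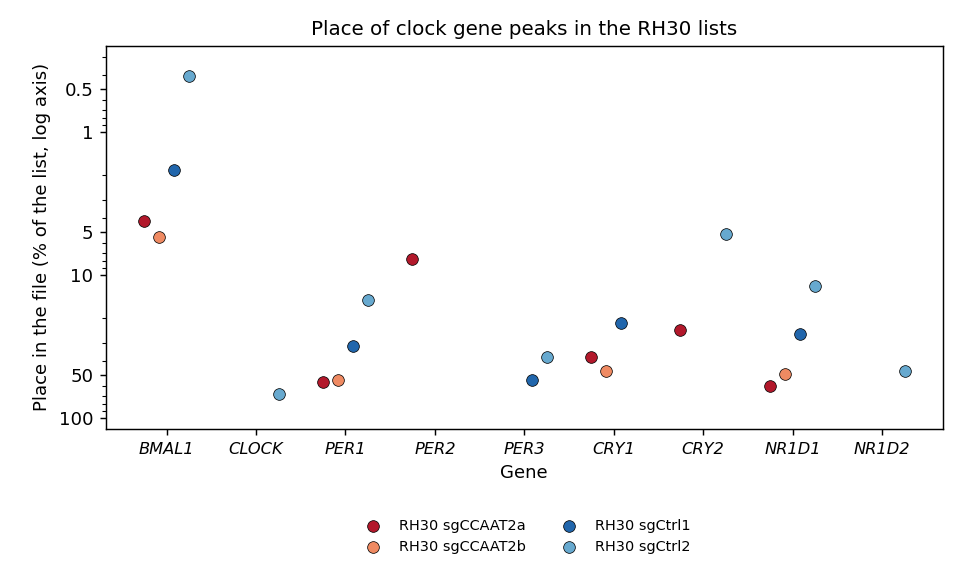
Place of each clock gene's peak in the 4 RH30 files, as the percent of the list that precedes and includes it (log axis, top of the file upwards), with edited lists in red and orange and control lists in blue. Peaks shown lie at a gene end or, for PER2 and NR1D1, at the inner promoter or just beyond the window; BMAL1 lies between 0.404% and 5.47% in all 4 lists.

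Peaks of different lists mostly touched each other at the clock genes, but many overlapped in part only. In 48 pairs of lists that both had a peak at the same clock gene's end, the peaks overlapped by at least 1 bp in 47, the exception being NR1D2. With 50% of both peaks required, 25 of the 48 pairs overlapped, among them 8 of 15 at BMAL1, 8 of 10 at PER1, 5 of 6 at CRY2, 2 of 6 at PER3 and 2 of 10 at CRY1. The same rate over all genes was not computed. Over all genes with a peak within 1000 bp of an annotated start, the median centre lay 106 bp upstream in both edited lists, against 102 and 93 bp in sgCtrl1 and sgCtrl2, and 107 and 105 bp for NFYB and NFYC in RH4. The middle 50% of sgCtrl1 centres ran from 55 to 173 bp upstream. The PER1 centres, 76 to 92 bp upstream, and the CRY2 centres, 119 to 164.5 bp upstream, lay within the middle 50% of their own list. Those of BMAL1 (at least 183 bp), PER2 (at least 284 bp) and PER3 (at least 218 bp) lay further out than it. At CRY1 the centres lay inside it with sgCCAAT2b (107 bp) and for RH4 NFYB (93.5 bp), and further out with sgCCAAT2a (192 bp), sgCtrl1 (206 bp) and for RH4 NFYC (202.5 bp).

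CCAAT boxes were also a general feature of windows with a peak. Of the windows that held the centre of a peak, 96.6% and 97.2% had a box in the edited lists, against 92.5% and 81.6% in sgCtrl1 and sgCtrl2, and 89.9% and 88.2% for NFYB and NFYC in RH4. Windows with at least 6 boxes, as at BMAL1, made up 0.69 to 1.21% of the windows with a peak in the 6 lists, against 0.108% of all windows.

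For a wider list of 20 clock-related genes, peaks at an end were about as common as over all genes. At least 1 of the 6 lists had a peak at an end for 4 of 20 genes (DBP, TEF, GSK3B and SIRT1), and 16 of 20 had none. Over all 20033 genes, 15684 (78.3%) had none. The count was 2 of 20 with each edited guide, against 2 with sgCtrl1 and 4 with sgCtrl2, and it was 2 and 3 for NFYB and NFYC in RH4. The shares of all genes were 8.9% and 9.27% in the edited lists, against 12.6% and 16.8% in the controls, and 15.0% and 15.3% in RH4. No peak was found at the ends of BMAL2 and NPAS2, paralogs of BMAL1 and CLOCK, of RORA and RORB, which activate BMAL1, or of BHLHE40 and BHLHE41, repressors that bind E-boxes. The same held for NFIL3, a repressor at D-boxes, for HLF, CIART and TIMELESS, for the kinase genes CSNK1D and CSNK1E and for BTRC and FBXW11, whose products mark clock proteins for degradation.

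The PAR bZIP genes DBP and TEF, outputs of the clock that bind D-boxes, and GSK3B, a kinase that phosphorylates clock proteins, had a peak within 1000 bp of an annotated start in all 6 lists. The same share over all genes was not computed at starts, and at gene ends it was 7.03%. The DBP peak, which also lay at an end of its neighbour CA11, was centred 264 and 305 bp upstream of the start in the edited lists, against 264 and 283 bp in sgCtrl1 and sgCtrl2. It was entry 412 of 2451 and 468 of 2558, against 277 of 4025 and 222 of 6687. The authors' deposited tables list it as higher with sgCtrl2 than with sgCCAAT2a, and not than with sgCCAAT2b or sgCtrl1. TEF had a peak at its inner start, 14487 bp inside the gene, in all 6 lists, and at its outer start with sgCtrl2 and for RH4 NFYC. The GSK3B peak was centred 489 and 482 bp upstream of the start in the edited lists, and likewise 489 and 482 bp in sgCtrl1 and sgCtrl2. For NFYB and NFYC in RH4 it was 503.5 and 445 bp. The RH30 peaks thus lay outside the promoter window, whose CCAAT box lay inside the RH4 peaks alone. The GSK3B peak stood at entries 44 and 24 in the edited lists, against 22 and 21 in the controls, and none of the authors' deposited tables lists it. SIRT1, a deacetylase that acts on clock proteins, had a peak with sgCtrl2 alone, and the authors' deposited table over sgCtrl1 lists it.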

How the data were processed

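CUT&RUN peak positions in bp on hg38 were taken from the files the authors deposited for 6 NFYB and NFYC libraries, together with 3 differential tables; the RH4 consensus list was not used here. Column 5, where a score would stand, holds 1 throughout the deposited files, so that score was not used. Each RH30 library had its peaks called alone with HOMER, per the file headers (2-fold over an input directory shared by all 4 libraries, 4-fold over the surrounding 10000 bp), and the tables with HOMER's differential peak command (fold 2.5, Poisson p 0.001) on the sgCtrl2 list. For RH4 the peak caller was not given in the sources used here; per the submitters' processing notes MACS2 and HOMER were both used. Depth is 10.5 to 28.2 M tags in RH30 and unknown in RH4.

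Libraries were grouped by title, 1 library in each group. Genes were the 20033 protein-coding genes of RefSeq on GRCh38.p14; annotated starts and strands came from the promoter table, which has them for 15841 of these genes. The CCAAT box, the E-box CACGTG, the receptor core AGGTCA, the D-box TTANGTAA and, with no result given, the GC box GGGCGG were searched on both strands; matches of different motifs may overlap. Analyses used Python 3.11.15 with pandas 2.3.3 and scipy 1.17.1. The overlap code was tested on simulated data, where 20 of 20 lists gave the result of bedtools 2.31.1. The members and lists were chosen with earlier results of these data known. Named genes were the 9 members, genes sharing their peaks, the members of the wider list with a peak, and up to 3 genes of most like pattern for each member in at least 4 lists. The alternatives were windows of 500 and 3000 bp, the peak centre in the window, the 5' gene end alone, the stricter 50% of each list and a shared overlap of 50% of both peaks. Any annotated start and the whole gene with 1000 bp were chosen after seeing the data. Some genes that this rule or the wider list names are not reported here.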

Additional observations from a re-analysis of the deposited data

How the results depend on the processing

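All 13 counts of clock genes stayed within 1.5 times the reported value with a window of 500 bp, with the peak centre in the window, at the 5' gene end alone and at any annotated start. With 500 bp the BMAL1 peaks fell outside in all 6 lists, since they lie at the inner start. The stricter 50% of each list kept 2 clock genes for RH4 NFYB, 3 for RH4 NFYC and 2 in both RH4 lists. Over all genes it kept a peak at an end for 8.21% in RH4 NFYB and 9.1% in RH4 NFYC. For RH4, whose files run in genomic order, the widest 50% of peaks was taken. For RH30 it was the first 50% of each file, although the headers do not state that entries are ranked. With 3000 bp, 5 clock genes were in the authors' deposited table over sgCCAAT2b, PER1 among them through the sgCtrl2 peak beyond its far end. With the whole gene and 1000 bp, chosen after seeing the data like the count at any annotated start, 5 clock genes had a peak in both control lists, 5 were in the authors' deposited table over sgCCAAT2b and 1 was in that over sgCtrl1. CRY1 is among those in both control lists through different sites, the promoter with sgCtrl1 and a site inside the gene with sgCtrl2. That inner peak is also the one listed over sgCtrl1. Under these settings, shares over all genes are not given here for counts in both RH4 lists, both controls or the authors' deposited tables. Nothing is read from those counts. With 50% of both peaks required, 25 of 48 pairs of lists shared a peak. Widths differ between lists (median 153 bp with sgCCAAT2a, 411 bp for RH4 NFYB). Peaks of like width could also be shifted, as with sgCtrl1 (189 bp) and sgCtrl2 (197 bp) at PER3. The part of each in the lower number was not tested. No paired analysis was possible because each guide and antibody has 1 library.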
